A study of Mus musculus with 6 samples.

Results

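The immunoglobulin heavy chain variable (V) genes described here are the rows of the deposited FPKM table whose symbol starts with Ighv and whose gene type is IG_V_gene. This rule was chosen by symbol after the values of the Gdpd3 genotype comparison had drawn attention to antibody genes, so the genotype differences below are descriptions. Calls and standard errors from a fit across all genes are printed beside them and are not evidence for a difference. It selected 36 of the 36976 genes in the table, all on the minus strand of chromosome 12 between positions 114891502 and 117238672 (mm9). The table lists 112 rows of type IG_V_gene on chromosome 12, and the other 76 carry older symbols (75 start with Gm), so the 36 members hold only a part of the heavy chain V signal. An additional Ighv row, Ighv1-73, is typed as protein coding and lies outside the rule.

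The libraries were made by SMART-Seq, a full-length cDNA method for small amounts of RNA, from long-term (LT) stem cells of mice with chronic myelogenous leukaemia (CML). All mice were on a C57BL/6 background and carried SCL-tTA and TRE-BCR-ABL1, a pair of transgenes. In these the SCL promoter drives the activator tTA, which turns on BCR-ABL1 once doxycycline is withdrawn. Cells were taken 5 weeks after induction. The control group was Gdpd3+/+ tet-CML-affected mice (3 libraries, replicates 1, 2 and 3, from 34 mice, 22 males and 12 females), and the other group was Gdpd3-/- tet-CML-affected mice (3 libraries, replicates 5, 6 and 7, from 10 mice, 5 males and 5 females), in which a short deletion made by genome editing disrupts Gdpd3. How the mice were divided over the libraries is not given in the sources used here, so the number of mice behind a library cannot be told apart from genotype. Values are given below in the order of replicates 1, 2 and 3, then 5, 6 and 7.

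A heavy chain is assembled in each developing B cell by joining 1 of many V segments to a D and a J segment, and the product is transcribed with a constant gene such as Ighm. Each B cell and its descendants therefore use 1 V segment, and plasma cells carry very large amounts of that transcript. V segments fall into families by sequence, and Ighv11 and Ighv12 are known from B-1 cells, which make natural IgM. The sort was for CD150+CD48-CD135- Lineage-Sca-1+cKit+ cells, with the B cell antigen B220 among the lineage antigens excluded, so antibody transcripts are not markers of the cells that were sorted.

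The sequences of the segments that carry the signal are shown first, because how alike 2 segments are bears on how their reads were shared. They come from the GENCODE M21 transcripts (GRCm38) and are reference sequence of chromosome 12, minus strand, not sequence read from these libraries. Each run is the last 300 bases of the V exon, which encodes the variable region up to the third hypervariable loop, in coding direction. Ighv11-2 (chr12:114048241-114048540) is set beside its nearest relative, the row Gm16611, whose transcript is named Ighv11-1 in GENCODE (chr12:113981879-113982178). Capitals mark the 4 bases of 307 aligned at which they differ (98.7% identity).
Ighv11-2: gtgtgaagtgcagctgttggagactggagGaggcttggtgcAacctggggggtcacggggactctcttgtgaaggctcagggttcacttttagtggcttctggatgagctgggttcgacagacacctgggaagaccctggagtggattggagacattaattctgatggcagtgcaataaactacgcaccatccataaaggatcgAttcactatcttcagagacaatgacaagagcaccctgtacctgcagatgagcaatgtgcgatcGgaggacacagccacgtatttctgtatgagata
Gm16611 (Ighv11-1): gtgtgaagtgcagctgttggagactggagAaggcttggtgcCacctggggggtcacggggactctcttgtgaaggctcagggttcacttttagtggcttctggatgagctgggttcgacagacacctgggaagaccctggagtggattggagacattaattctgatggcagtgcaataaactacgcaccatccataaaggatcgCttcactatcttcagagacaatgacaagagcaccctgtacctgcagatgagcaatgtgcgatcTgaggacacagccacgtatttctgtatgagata

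The second pair is Ighv9-3 (chr12:114140692-114140991), the next highest member in every Gdpd3+/+ library, and Ighv9-2 (chr12:114109001-114109300). They differ at 17 of 305 aligned bases (94.4% identity), and capitals mark the 15 differences within the runs shown.
Ighv9-3: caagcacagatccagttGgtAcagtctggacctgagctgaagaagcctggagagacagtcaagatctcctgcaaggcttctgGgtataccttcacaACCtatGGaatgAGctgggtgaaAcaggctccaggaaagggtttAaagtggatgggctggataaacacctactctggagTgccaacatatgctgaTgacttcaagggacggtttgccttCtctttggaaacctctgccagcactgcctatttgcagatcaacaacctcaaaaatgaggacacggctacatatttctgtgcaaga
Ighv9-2: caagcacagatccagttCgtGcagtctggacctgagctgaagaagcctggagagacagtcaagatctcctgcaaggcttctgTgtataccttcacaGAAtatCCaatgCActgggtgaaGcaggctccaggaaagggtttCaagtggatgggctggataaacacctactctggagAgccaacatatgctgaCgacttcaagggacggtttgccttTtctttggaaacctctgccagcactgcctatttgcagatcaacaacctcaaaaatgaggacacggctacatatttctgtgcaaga

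Ighv12-3 (chr12:114366521-114366820) stands apart in sequence, with 78.2% identity to its nearest relative in the locus, and no base is in capitals.
Ighv12-3: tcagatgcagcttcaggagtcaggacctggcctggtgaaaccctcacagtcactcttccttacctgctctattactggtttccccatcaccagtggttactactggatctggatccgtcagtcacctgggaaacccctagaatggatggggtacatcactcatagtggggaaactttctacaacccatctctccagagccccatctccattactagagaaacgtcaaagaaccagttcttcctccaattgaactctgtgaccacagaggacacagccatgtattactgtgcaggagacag

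Ighv1-62-2 (chr12:115446409-115446708) and Ighv1-71 (chr12:115742205-115742504) share 1 V exon sequence, without a difference over 302 bases, so 1 run stands for both and no read within it can tell them apart.
Ighv1-62-2 and Ighv1-71: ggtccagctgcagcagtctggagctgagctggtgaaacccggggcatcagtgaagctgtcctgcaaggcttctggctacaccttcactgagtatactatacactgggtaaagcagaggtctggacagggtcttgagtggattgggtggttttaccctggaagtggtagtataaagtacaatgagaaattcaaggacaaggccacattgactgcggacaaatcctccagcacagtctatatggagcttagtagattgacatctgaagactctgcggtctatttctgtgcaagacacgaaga

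Of the 36 members, 32 could be matched to a GENCODE V exon of the same symbol, and 19 of these had another row of the locus at 95% identity or more. The deposited values bear on this. FPKM (fragments scaled by gene length and by library depth) times length came out in steps of 0.01 fragment, so fragments had been divided between places. Of 200 member values above 0, 16 (8.0%) were whole numbers of fragments, beside 47.2% to 55.2% of all genes above 0 in a library. Many members hold large numbers of fragments, and 1 divided fragment is enough to make a value not whole. The share therefore depends on level as well as on sequence. The matched members with the lowest identity to any other row were Ighv12-3, with whole fragments in 5 of 6 libraries, and Ighv15-2, at 75.7% identity to its nearest relative, with whole fragments in 3 of the 4 libraries in which it was above 0. The remaining 8 whole values were spread over 8 members at 86.1% to 100% identity, 1 in each. Ighv1-62-2 and Ighv1-71 moved together over a wide range. Ighv1-71 had 230.4, 6.44 and 52.0 FPKM in Gdpd3+/+, where Ighv1-62-2 had 163, 10.7 and 42.7. In Gdpd3-/- Ighv1-71 had 39.8, 1.46 and 0.319 FPKM, and Ighv1-62-2 had 66.6, 2.55 and 0.451. Within the shared exon these values cannot be told apart. Gm16611 lay at 6.01% to 7.60% of Ighv11-2 in all 6 libraries, and how much of it is shared reads was not tested.

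Depth on genes, worked out from these steps, was 49753146 to 62762437 fragments in the Gdpd3+/+ libraries and 21334716 to 36421439 in the Gdpd3-/- libraries. Gdpd3 itself had 7.30, 3.29 and 2.95 FPKM in Gdpd3+/+ and 0.110, 0.0129 and 0.681 in Gdpd3-/-, so no library went against its label. Kit (108 to 136 FPKM) and Ly6a, which encodes Sca-1 (342 to 563 FPKM), were present in every library. Of 7 genes whose products were sorted against, 4 overlapped between the groups. Over the 24689 genes averaging 0.05 FPKM or more, 8.27% lay lower in Gdpd3-/- without overlap and 23.5% higher. Flt3, which encodes CD135, was at 9.80 to 11.0 FPKM in Gdpd3+/+ and 36.8 to 46.5 in Gdpd3-/-, and Cd48 was at 39.8 to 44.8 and 51.6 to 92.2 FPKM. Itgam, which encodes the myeloid antigen CD11b, was at 19.3 to 22.3 FPKM in Gdpd3+/+ and 1.69 to 13.4 in Gdpd3-/-. Markers of skeletal muscle summed to 830.3 to 1236 FPKM in Gdpd3+/+ and to 10739, 15443 and 2045 in Gdpd3-/-. Within Gdpd3-/-, the library with the highest muscle sum, replicate 6, had the lowest V sum, and the one with the lowest, replicate 7, had the highest. The part of muscle transcripts in the results was not tested.

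Summed over the 36 members, the V signal was 16726, 19019 and 19142 FPKM in Gdpd3+/+. It was 8604, 5849 and 8862 FPKM in Gdpd3-/-. The means were 18296 ± 1361 and 7772 ± 1670 FPKM (SD, n = 3), a ratio of 2.35, and the groups did not overlap. In these bulk samples, fewer cells of a type and less RNA per cell cannot be told apart. The members took 0.583%, 0.666% and 0.669% of all fragments on genes in Gdpd3+/+ and 0.298%, 0.203% and 0.312% in Gdpd3-/-. All 112 rows of the locus together gave 36059, 34717 and 39324 FPKM in Gdpd3+/+ against 15090, 11308 and 16469 in Gdpd3-/-, a ratio of means of 2.57.

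A single segment held most of the member signal in every library. Ighv11-2, whose product pairs with an Igkv14-126 light chain in well-known B-1 cell antibodies against phosphatidylcholine, had 11545, 15493 and 14871 FPKM in Gdpd3+/+. It had 7176, 4709 and 7744 FPKM in Gdpd3-/-, and the 2 groups did not overlap. The means were 13970 ± 2123 and 6543 ± 1613 FPKM (SD, n = 3). Ighv11-2 thus made up 69.0%, 81.5% and 77.7% of the member sum in Gdpd3+/+ and 83.4%, 80.5% and 87.4% in Gdpd3-/-. In fragments, the share ran from 70.0% (95% Wilson interval 69.8% to 70.1%, 202759 of 289815 fragments) in Gdpd3+/+ replicate 1 to 87.7% (87.5% to 88.0%, 68713 of 78312) in Gdpd3-/- replicate 7. These intervals cover counting error only, and the spread between libraries of 1 genotype was far wider than any of them. Gdpd3-/- replicate 6 lay below Gdpd3+/+ replicate 2, so the share of Ighv11-2 overlapped between the groups. Ighv11-2 also led all 112 rows of the locus in every library, at 32.0% to 44.6% of that sum in Gdpd3+/+ and 41.6% to 47.6% in Gdpd3-/-.

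**Figure D1:**
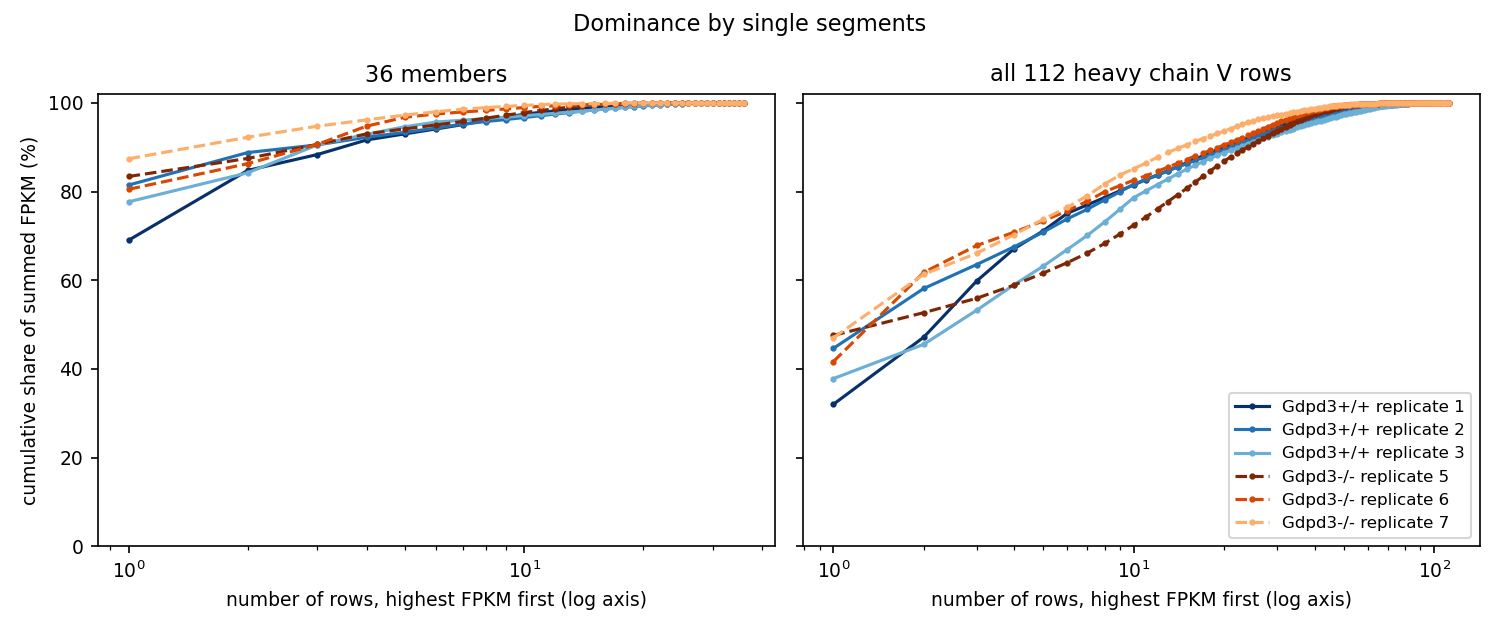
Cumulative share of the summed FPKM (vertical axis, %) against the number of rows counted from the highest down (horizontal log axis), for the 36 members on the left and all 112 heavy chain V rows on the right, 1 line for each library. In the left panel the first point, Ighv11-2, is at 69.0% to 87.4%, and in the right panel it is at 32.0% to 47.6%.

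Dominance was put into 1 number as the effective number of segments (the inverse Simpson index, 1 over the sum of squared shares, which is 1 when a single segment holds everything). It was 1.98, 1.49 and 1.63 in Gdpd3+/+ and 1.43, 1.53 and 1.30 in Gdpd3-/-, and the groups overlapped. Between 2 and 4 of the 36 members made up 90% of the sum. Ighv11-2 exceeded the second member 4.38-, 11.1- and 11.9-fold in Gdpd3+/+ and 20.5-, 13.9- and 18.0-fold in Gdpd3-/-, and here the groups did not overlap. Over all 112 rows it exceeded the second row 2.11-, 3.30- and 4.89-fold in Gdpd3+/+ and 9.25-, 2.07- and 3.28-fold in Gdpd3-/-, which overlapped. With Ighv11-2 set aside, the effective number among the other 35 was 3.45, 5.35 and 5.34 in Gdpd3+/+ and 7.46, 5.09 and 4.64 in Gdpd3-/-. The lowest and highest of these came from Gdpd3+/+ replicate 1, where Ighv9-3 alone was 50.8% of the remainder, and from Gdpd3-/- replicate 5, where the leading segment was 24.5%. Over all 112 rows the effective number was 6.58, 4.42 and 6.01 in Gdpd3+/+ and 4.23, 4.51 and 3.99 in Gdpd3-/-, again with an overlap.

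The identity of the second segment differed between libraries. It was Ighv9-3 in every Gdpd3+/+ library, at 15.7%, 7.33% and 6.54% of the member sum. In Gdpd3-/- it was Ighv1-18 in replicate 5 (4.07%), Ighv8-12 in replicate 6 (5.79%) and Ighv1-9 in replicate 7 (4.87%). The third segment was Ighv1-12, Ighv1-18 and Ighv12-3 in the Gdpd3+/+ libraries, and Ighv1-12, Ighv1-5 and Ighv9-3 in the Gdpd3-/- libraries. Apart from Ighv11-2, no member was among the leading 3 members in all 6 libraries. This holds only within the rule. Over all 112 rows of the locus, Gm16698 (named Ighv7-3 in GENCODE) was, like Ighv11-2, among the leading 3 in all 6 libraries.

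By family, Ighv11, with Ighv11-2 as its only member, came first at a mean of 79.9% of the member sum over the 6 libraries. Ighv1, the largest family with 20 members, came next at 9.28%, followed by Ighv9 with 2 members at 5.95%, Ighv8 with 6 at 1.77% and Ighv12 with 1 at 1.76%. Ighv10 averaged 0.852%, and the remaining 4 families (Ighv2, Ighv3, Ighv14 and Ighv15, with 5 members) each averaged under Ighv10. The share of Ighv1 was 13.1%, 7.72% and 7.73% in Gdpd3+/+ and 11.7%, 6.68% and 8.78% in Gdpd3-/-, so it overlapped and its means were close (9.51% ± 3.09 and 9.04% ± 2.51, SD, n = 3). Ighv9 behaved otherwise. Its share was 16.0%, 7.59% and 6.75% in Gdpd3+/+ and 0.759%, 2.06% and 2.54% in Gdpd3-/-, and the groups did not overlap. Ighv8 was at 0.674%, 0.624% and 0.395% in Gdpd3+/+ and at 2.54%, 6.04% and 0.317% in Gdpd3-/-, where replicate 7 lay below every Gdpd3+/+ library. Ighv12 reached 6.28% in Gdpd3+/+ replicate 3 and stayed between 0.430% and 1.72% in the other 5 libraries.

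**Figure D2:**
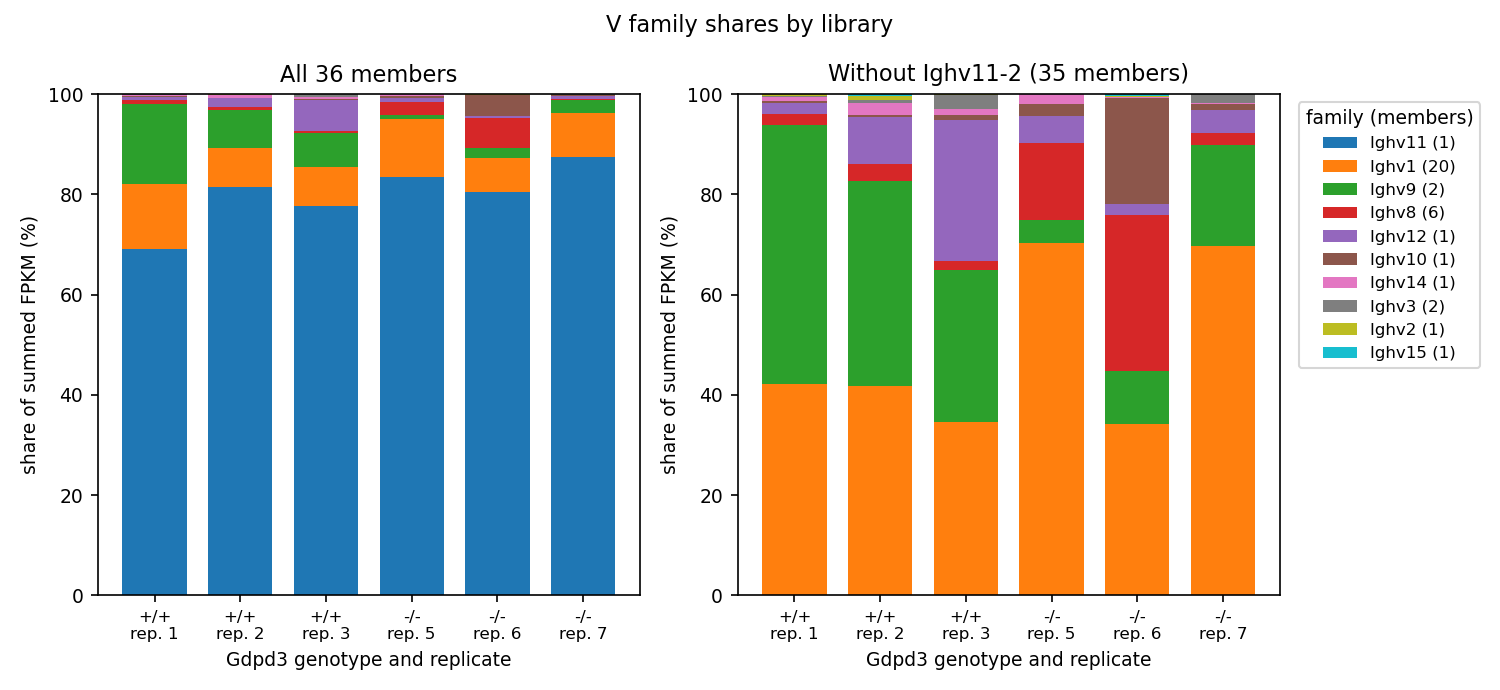
Share of summed FPKM (vertical axis, %) by V family in each of the 6 libraries, for all 36 members on the left and without Ighv11-2 on the right; colours mark the 10 families, with the number of members in brackets. Without Ighv11-2, Ighv9 takes 30.3% to 51.6% in Gdpd3+/+ and 4.57% to 20.2% in Gdpd3-/-, and in Gdpd3-/- replicate 6 Ighv8 and Ighv10 take 31.0% and 21.2%.

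Ighv9-3 had the second highest mean FPKM of the members. It had 2633, 1393 and 1253 FPKM in Gdpd3+/+ and 63.3, 117 and 221 FPKM in Gdpd3-/-. Its close relative Ighv9-2 had 40.6, 50.4 and 40.1 FPKM in Gdpd3+/+ and 2.05, 3.32 and 4.07 in Gdpd3-/-. Neither overlapped between the groups, and the means of Ighv9-3 were 1760 ± 759.6 and 134 ± 80.4 FPKM (SD, n = 3), a ratio of 13.1. Its log2 difference (Gdpd3-/- minus Gdpd3+/+, on the log2(FPKM + 0.1) scale) was -3.82 (standard error 0.49), against -1.12 (standard error 0.27) for Ighv11-2.

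Ighv12-3, the other B-1 associated segment, had 112, 327 and 1202 FPKM in Gdpd3+/+ and 77.4, 25.2 and 49.7 in Gdpd3-/-. The groups did not overlap, but Gdpd3+/+ replicate 3 alone held 67.0% of its summed level over the 6 libraries.

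Among the 20 Ighv1 members, the leader was Ighv1-18, with 186, 330.5 and 461 FPKM in Gdpd3+/+ and 349.8, 19.7 and 66.2 in Gdpd3-/-. Gdpd3-/- replicate 5 lay among the Gdpd3+/+ values. Ighv1-9 had 551, 79.6 and 200.3 FPKM in Gdpd3+/+ and 58.6, 0.113 and 431 in Gdpd3-/-. Ighv1-12 had 599, 183 and 15.2 FPKM in Gdpd3+/+ and 272, 43.9 and 0.827 in Gdpd3-/-. Ighv1-5 had 0.840, 213 and 328 FPKM in Gdpd3+/+ and 0.239, 254 and 1.32 in Gdpd3-/-. Each of these 3 was near or above 200 FPKM in some libraries of both genotypes and near 1 FPKM or lower in at least 1 library, and the range within each genotype was wider than the distance between the group means.

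Some members were low in all Gdpd3-/- libraries. Ighv1-54 had 124, 36.1 and 40.3 FPKM in Gdpd3+/+ and 0.435, 0.131 and 0.415 in Gdpd3-/-, a log2 difference of -7.15 (standard error 0.56), the lowest of the members tested at this pseudocount of 0.1. With a pseudocount of 0.01 it was -7.56, and Ighv1-67 (-8.86) and Ighv3-3 (-8.62) lay lower, while with a pseudocount of 1 Ighv1-54 was at -5.45. Ighv1-85 had 53.5, 108 and 81.0 FPKM in Gdpd3+/+ and 0.776, 1.20 and 2.05 in Gdpd3-/- (log2 difference -5.85, standard error 0.39). Ighv1-67 had 2.73, 8.06 and 40.5 FPKM in Gdpd3+/+, was at 0.0797 in Gdpd3-/- replicate 5 and was listed at 0 in replicates 6 and 7. In those a count of 0 allows up to 0.280 and 0.406 FPKM, from 3 fragments. Ighv2-4 had 17.2, 30.7 and 11.4 FPKM in Gdpd3+/+ and 0, 2.11 and 1.04 in Gdpd3-/-. Ighv3-3 was at 1.26, 0.982 and 48.8 FPKM in Gdpd3+/+ and at 0 in every Gdpd3-/- library. Against 3 fragments a library it was at least 44.2-fold higher in Gdpd3+/+, but replicate 3 was 38.9-fold above the next Gdpd3+/+ library and makes up nearly all of that mean.

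At the other end, 4 of the 34 members tested had a log2 difference above 0, and none was above in every library. Ighv8-12 had 74.0, 87.1 and 61.7 FPKM in Gdpd3+/+ and 205, 339 and 23.7 in Gdpd3-/-. Ighv10-3 had 19.9, 18.4 and 39.8 FPKM in Gdpd3+/+ and 34.3, 241 and 14.8 in Gdpd3-/-, so replicate 6 set its mean. Ighv1-7 had 13.3, 18.4 and 11.0 FPKM in Gdpd3+/+ and 51.2, 1.51 and 96.8 in Gdpd3-/-. The other was Ighv8-6, under 5 FPKM in every library. Ighv1-83 (log2 difference -0.13, standard error 0.51) and Ighv8-11 (-0.36, standard error 0.33) lay within 2.05 to 8.53 FPKM in all 6 libraries, and their groups overlapped.

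**Figure D3:**
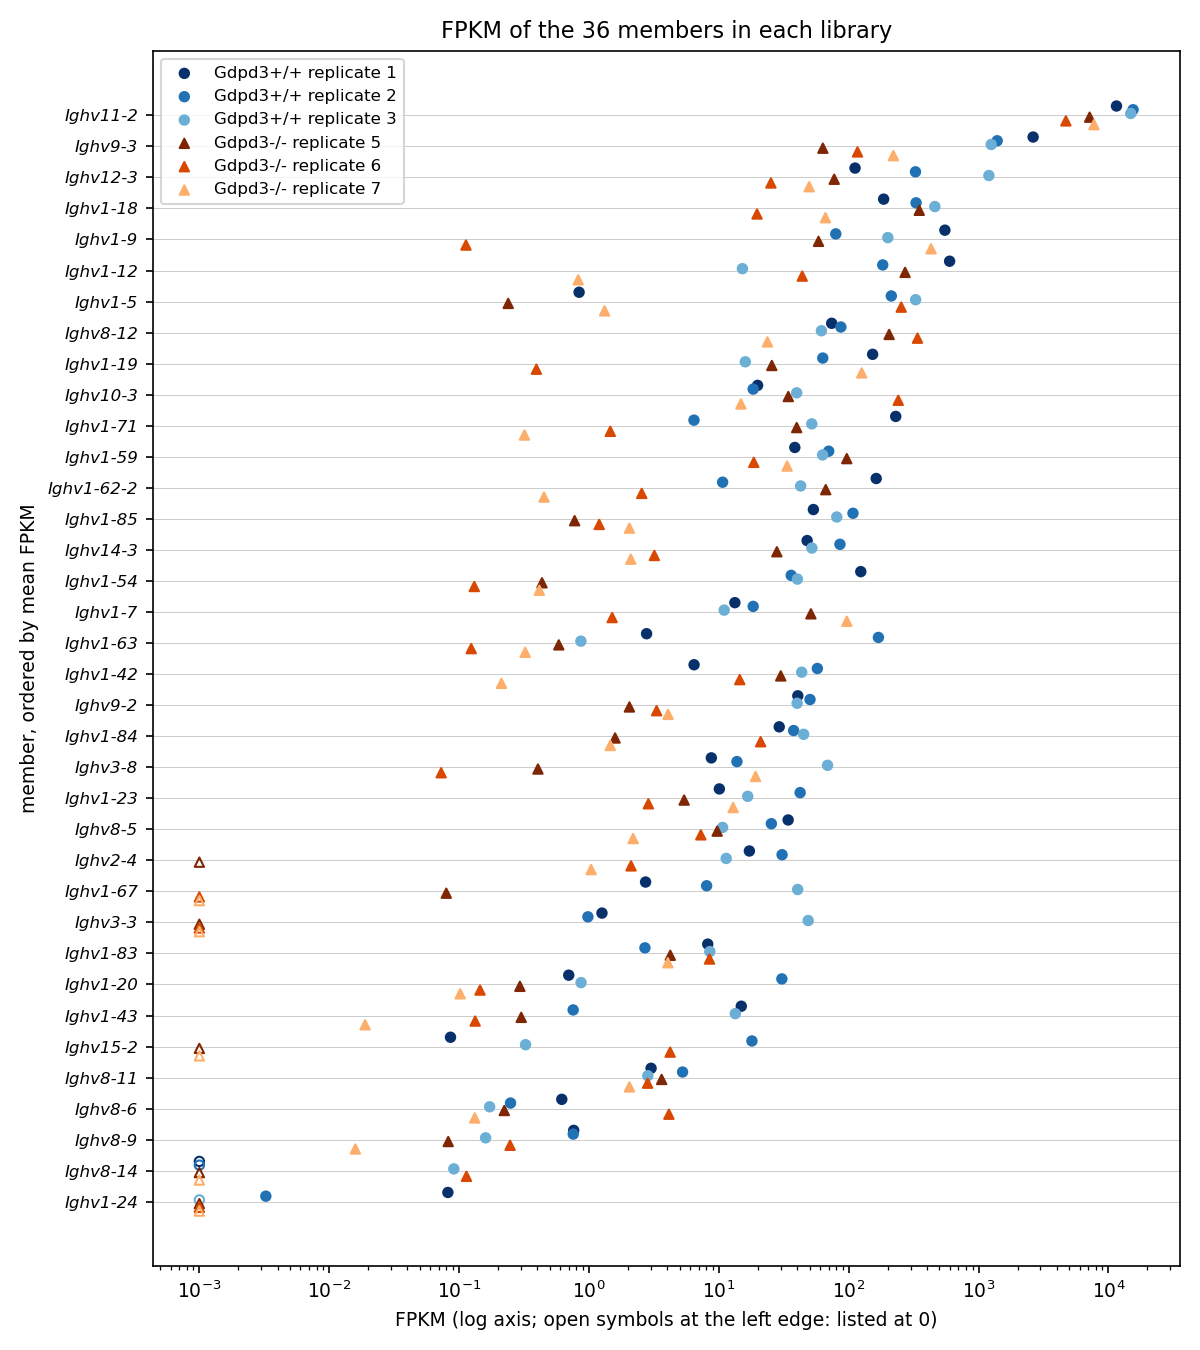
FPKM (horizontal log axis) of each of the 36 members (rows, ordered by mean FPKM), with circles for the 3 Gdpd3+/+ and triangles for the 3 Gdpd3-/- libraries; open symbols at the left edge are values listed at 0. Ighv11-2 stands at 4709 FPKM or more in every library, and members such as Ighv1-5 and Ighv1-63 spread over more than 100-fold within 1 genotype.

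Single libraries carried much of the signal of many segments. For 17 of the 36 members, 1 library held over 50% of the summed FPKM of the 6. These libraries were Gdpd3+/+ replicate 1 for 6 members, replicate 2 for 3 and replicate 3 for 4, and Gdpd3-/- replicate 6 for 3 and replicate 7 for 1. The highest share was that of Ighv1-63 (97.3%), with 169.5 FPKM in Gdpd3+/+ replicate 2 and 0.124 to 2.78 elsewhere. Ighv1-24 came next (96.2%) but was at 0.0820 FPKM or lower in every library. It was followed by Ighv3-3 (95.6%) and Ighv1-20 (93.6%), the latter with 30.6 FPKM in Gdpd3+/+ replicate 2 and 0.102 to 0.870 elsewhere. Ighv1-63, Ighv1-24 and Ighv1-20 were named after their values were seen. Within Gdpd3+/+ 13 members differed over 10-fold between the lowest and the highest library, and within Gdpd3-/- 21 did. A lowest value of 0 was counted as over 10-fold below any value above 0. The shallower Gdpd3-/- libraries listed more members at 0, and the same share over all genes is not given here. Among the 32 members averaging 1 FPKM or more, the median SD of log2 values was 1.01 within Gdpd3+/+ and 1.59 within Gdpd3-/-. Over all 15103 genes at that level it was 0.12 and 0.34. Across the 36 members, Pearson's r of log2(FPKM + 0.1) between libraries was 0.73 to 0.79 within Gdpd3+/+, 0.54 to 0.76 within Gdpd3-/- and 0.49 to 0.81 between the genotypes. The members are not independent replicates in these correlations, since they share libraries and, in part, reads.

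The number of segments seen also differed. With more than 3 fragments as the limit, 33, 34 and 33 members were detected in Gdpd3+/+ and 24, 25 and 24 in Gdpd3-/-, and 19 were detected in all 6 libraries. At 1 FPKM or more there were 29, 30 and 29 in Gdpd3+/+ and 21, 24 and 21 in Gdpd3-/-, and at 100 FPKM or more 10, 8 and 6 against 4, 5 and 4. Members listed at 0 numbered 1, 1 and 1 in Gdpd3+/+ and 5, 3 and 5 in Gdpd3-/-. Over all genes in the table, 39.5%, 38.0% and 37.9% were at 0 in Gdpd3+/+ and 36.8%, 37.5% and 32.1% in Gdpd3-/-. The Gdpd3-/- libraries held fewer fragments (median ratio 2.44) and were drawn from fewer mice, and the part of either in these counts was not tested.

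In the limma fit across all genes tested, 5 of 34 members (Ighv9-3, Ighv9-2, Ighv1-54, Ighv1-67 and Ighv1-85) passed an adjusted p of 0.05 as lower in Gdpd3-/- and 0 as higher. Ighv9-3 and Ighv9-2 are alike in sequence, and how much of Ighv9-2 is shared reads was not tested, so their calls may not be separate. Over all 24689 genes tested, 0.616% were called lower and 1.09% higher. The other 2 members, Ighv8-14 and Ighv1-24, were under the mean of 0.05 FPKM needed for the fit. At an unadjusted p under 0.05 there were 15 members, 15 of them lower, against 5.76% of all genes tested as lower and 16.5% as higher. By values alone, 15 members had all Gdpd3-/- values under all Gdpd3+/+ values and 0 had all of them over, against 8.27% and 23.5% of all genes tested. The median log2 difference of the members tested was -2.98, beside 0.24 over all genes tested. With Ighv3-3 at its bound it was -2.98 again, which was fixed in advance because Ighv3-3 lies far below the median either way. The genotype comparison drew attention to these genes, so these counts are not evidence for it. The call count fell to 0 without Gdpd3+/+ replicate 1 and to 0 without Gdpd3+/+ replicate 2. How many of all genes were called in those fits is not given here, so a general loss of calls cannot be told apart.

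The constant genes are those to which V segments are spliced. Ighm, the constant gene of IgM, had 37021, 34512 and 37136 FPKM in Gdpd3+/+ and 13047, 8439 and 17567 in Gdpd3-/-. It made up 91.6% to 93.7% of the constant sum in Gdpd3+/+ and 75.9%, 81.5% and 94.5% in Gdpd3-/-. Ighg1 had 1838, 2122 and 2406 FPKM in Gdpd3+/+ and 3960, 1614 and 625 in Gdpd3-/-, so its groups overlapped and replicate 5 was the highest of all. Ighg2b (listed as Ighg) had 535, 582 and 659.6 FPKM in Gdpd3+/+ and 91.1, 204 and 231 in Gdpd3-/-. Ighg2c ran from 32.7 to 318 FPKM and Ighg3 (listed as AI324046) from 0.0969 to 64.1 FPKM, with overlap in both. Rows named Ighd, Igha or Ighe were not analysed here. The sum of the 112 V rows stood at 0.913, 0.929 and 0.970 of the constant sum in Gdpd3+/+ and at 0.878, 1.09 and 0.886 in Gdpd3-/-. Ighv11-2 alone stood at 0.312, 0.449 and 0.400 of Ighm in Gdpd3+/+ and at 0.550, 0.558 and 0.441 in Gdpd3-/-, so Gdpd3-/- replicate 7 lay below Gdpd3+/+ replicate 2.

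The light chain segment known to pair with Ighv11-2, Igkv14-126, was the highest kappa V row. It held 53.3%, 57.6% and 53.5% of the kappa V sum in Gdpd3+/+ and 59.6%, 62.9% and 57.0% in Gdpd3-/-. Igkv14-126 had 31068, 41153 and 39284 FPKM in Gdpd3+/+ and 21182, 14630 and 22505 in Gdpd3-/-, which is 2.64 to 2.69 times Ighv11-2 in Gdpd3+/+ and 2.91 to 3.11 times in Gdpd3-/-. These ratios are of FPKM, which is per length, and the 2 groups of ratios did not overlap. Beside the ratio of group means (Gdpd3+/+ over Gdpd3-/-) of 2.35 for the members, the summed FPKM of the 21 heavy chain D rows had a ratio of 2.10, the 4 J rows 2.57 and the 100 kappa V rows 2.07. On the same measure the kappa constant gene Igkc was at 2.11 and Igkv14-126 at 1.91, beside 2.14 for Ighv11-2. Moving with Ighv11-2 was thus not particular to Igkv14-126, and pairing was not tested. The 3 lambda V rows summed to 12010, 3708 and 4447 FPKM in Gdpd3+/+ and to 3675, 1545 and 1620 in Gdpd3-/-. Gdpd3+/+ replicate 1 stood far above the others there, and the lowest Gdpd3+/+ value lay just above the highest Gdpd3-/- value.

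**Figure D4:**
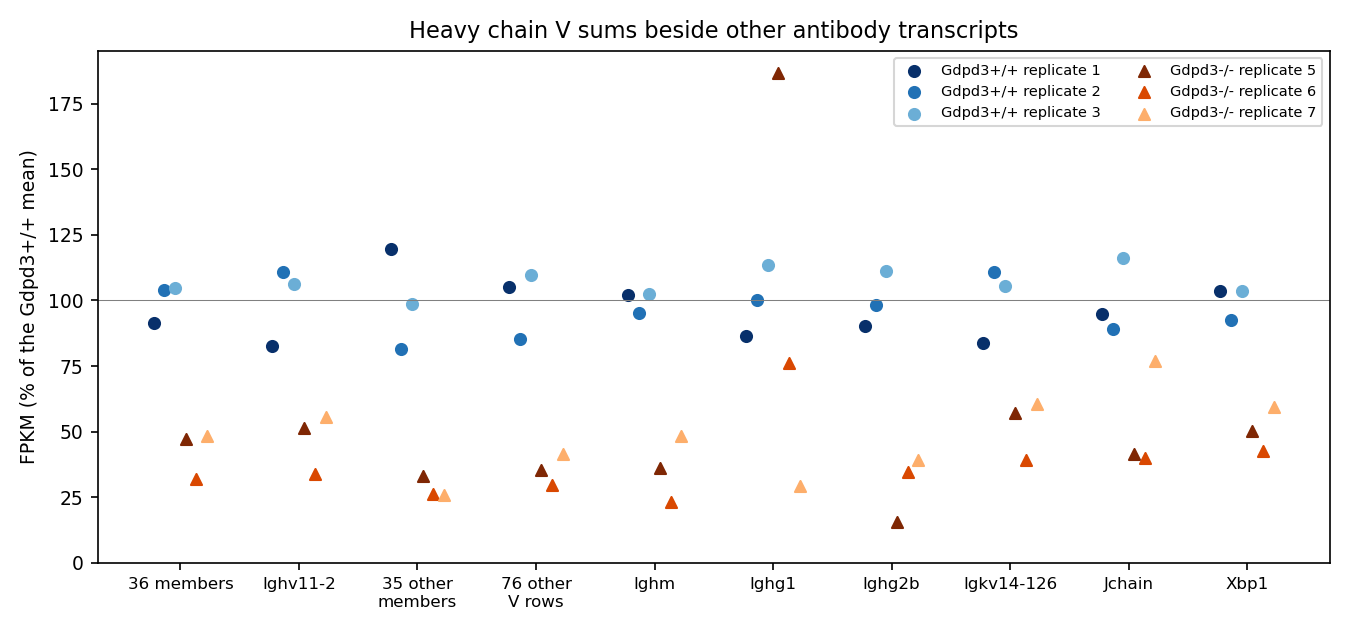
FPKM as a percentage of the Gdpd3+/+ mean (vertical axis) for heavy chain V sums and single segments beside constant, light chain and plasma cell genes, 1 point for each library (circles Gdpd3+/+, triangles Gdpd3-/-). The Gdpd3-/- points of the 36 members, Ighv11-2, Ighm, Ighg2b, Igkv14-126, Jchain and Xbp1 lie below all Gdpd3+/+ points, and those of Ighg1 do not.

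Most markers of antibody-secreting cells were lower in Gdpd3-/-, as the V sums were, by amounts that differed. Of 16 plasma cell markers, 15 had all Gdpd3-/- values under all Gdpd3+/+ values and 5 were called lower. Over all genes tested the shares were 8.27% and 0.616%. The list summed to 2856 to 3568 FPKM in Gdpd3+/+ and 1355 to 2284 in Gdpd3-/-. Means of Sdc1 were 13.3 and 10.6 FPKM and of Tnfrsf13b 45.9 and 36.5, and Fkbp11 overlapped. Jchain, which joins IgM into polymers, had 2088, 1958 and 2551 FPKM in Gdpd3+/+ and 915, 882 and 1692 in Gdpd3-/-. Xbp1, a transcription factor of secretory cells, had 275, 246 and 275 FPKM in Gdpd3+/+ and 133, 113 and 158 in Gdpd3-/-. The 12 B cell markers summed to 85.0 to 93.6 FPKM in Gdpd3+/+ and 77.0 to 94.3 in Gdpd3-/-, which overlapped. Of these 12, 3 had all Gdpd3-/- values under all Gdpd3+/+ values, 2 had all of them over and 7 overlapped. Over all genes tested, 8.27% lay under and 23.5% over in this way. Fcrla was the 1 called lower, with 8.52 to 9.73 FPKM in Gdpd3+/+ and 1.64 to 3.17 in Gdpd3-/-. The highest levels were those of Cd79b, at 39.5 to 39.9 FPKM in Gdpd3+/+ and 50.2 to 58.7 in Gdpd3-/-, and Cd79a, at 27.7 to 33.7 and 12.7 to 28.9 FPKM, which encode the signalling chains of the B cell receptor. Ebf1 was at 0.158 to 0.504 FPKM in Gdpd3+/+ and 1.45 to 2.48 in Gdpd3-/-. Ms4a1 (CD20) was at 1.59 FPKM or lower and Pax5 at 0.174 FPKM or lower. Ms4a1 was listed at 0 in Gdpd3-/- replicate 6 and Pax5 in Gdpd3-/- replicates 5 and 6. The 8 B cell precursor markers summed to 7.05 to 9.64 FPKM in Gdpd3+/+ and 20.9 to 84.1 in Gdpd3-/-, of which Dntt, the enzyme that adds bases at V(D)J joints, had 0.966 to 1.73 and 12.1 to 51.7 FPKM. Without Dntt the other 7 summed to 7.74, 6.09 and 8.02 FPKM in Gdpd3+/+ and 5.58, 8.79 and 32.3 in Gdpd3-/-, which overlapped. Of the 8, 5 overlapped singly and 3 (Vpreb2, Rag1 and Dntt) had all Gdpd3-/- values over all Gdpd3+/+ values. Vpreb2 and Rag1 were at 1.72 FPKM or lower in every library, and Dntt was the 1 called higher. Over all genes tested, 23.5% lay over in this way and 1.09% were called higher. The 7 T cell markers summed to 6.53 to 7.92 and 4.89 to 12.8 FPKM. The part of these cell types in the V gene results was not tested.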

How the data were processed

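The 6 RNA-Seq libraries of sorted LT-CML stem cells were grouped by the labelled genotype, 3 Gdpd3+/+ and 3 Gdpd3-/-. Paired-end reads of 150 bases were processed, per the submitters' processing notes, with Trimmomatic, Trim Galore, cutadapt 1.16, STAR 2.6.1a, featureCounts 1.6.1 and DESeq2 on mm9, and the authors deposited FPKM values for 36976 genes. A second deposited table holds their DESeq2 comparison of the genotypes, whose fold changes and p-values were not used. Its base mean, a normalised count signal averaged over the libraries by the authors, was used only to check the depths inferred from FPKM (median difference 0.0255% over 15188 genes).

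FPKM times length came in steps of 0.01 fragment, so fragments were shared between features and no count model was run. Genes averaging 0.05 FPKM or more over the libraries were compared on the log2(FPKM + 0.1) scale by limma-trend (limma 3.58.1, R 4.3.3), with genotype as the only term and Benjamini-Hochberg adjustment over the 24689 genes tested. The study describes the 3 libraries of each genotype as independent biological samples, and which mice went into each is not given in the sources used here. V exons were aligned with Biopython 1.88, counting only alignments of at least 250 bases. Upper limits at 0 are 3 fragments.

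The members, lists and alternatives were chosen with earlier results of these data known. Members were named by rule: the leading 3 of each library, leaders of the 3 families of highest mean share, the 5 lowest and 5 highest log2 differences at a mean FPKM of at least 1, and Ighv11 and Ighv12. Ighv9-2, Ighv1-62-2, Ighv1-71, Ighv1-63, Ighv1-20, Ighv15-2, Ighv8-6, Ighv8-14 and Ighv1-24 were added to these with their values known. The alternatives were other pseudocounts, filters and scalings, no trend, FPKM times length, sets without the highest member or with more rows, and leaving out each library.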

Additional observations from a re-analysis of the deposited data

How the results depend on the processing

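The count of 5 members called lower fell to 3 without the intensity trend. With 1 library left out it ran from 0 (without Gdpd3+/+ replicate 1 or 2) to 7. The share of all genes called in these fits is not given here, so a general change in calls cannot be told apart. Without Gdpd3-/- replicate 6 or 7, 1 member was called higher (Ighv1-7 and Ighv8-12). With 1 library left out, the median log2 difference of the members ran from -3.34 to -2.07, and the ratio of summed FPKM from 2.1 to 2.53. The members below in every Gdpd3-/- library then numbered 16 to 20. Leaving out a library can only keep or raise that count from 15, so this range checks nothing. On the same terms the mean share of Ighv11 was 78.4% to 82.1%, of Ighv1 8.51% to 9.8%, of Ighv9 3.94% to 6.99%, of Ighv8 0.91% to 2.05% and of Ighv12 0.856% to 2.03%. The share of the highest segment was 73.4% to 79.6% in Gdpd3+/+ and 82% to 85.4% in Gdpd3-/-, and the effective number 1.56 to 1.81 and 1.37 to 1.48.

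Without the highest member of each library the ratio of summed FPKM was 3.52, and the mean shares of Ighv11, Ighv1, Ighv9, Ighv8 and Ighv12 were 0, 48.8%, 26.4%, 9.35% and 8.61%, since Ighv11-2 was the member left out. Over all 112 rows, an alternative chosen after seeing the data, Ighv11 had a mean of 44.6% and Ighv1 16.8%, the highest segment 38.2% in Gdpd3+/+ and 45.4% in Gdpd3-/-, and the effective number was 5.67 and 4.24, since more segments enter. The other alternatives left these results on the same side. With 1 library left out, the log2 difference ran from -0.63 to 2.33 for Ighv1-7 (-0.17 without Gdpd3-/- replicate 5, -0.63 without replicate 7), from -0.66 to 0.15 for Ighv1-83 (0.12, 0.15, 0.03 and 0.06 where its sign turned), from -0.12 to 1.89 for Ighv10-3 and from -0.08 to 1.84 for Ighv8-12, both turning below 0 without Gdpd3-/- replicate 6. The causes were not tested. The log2 difference of Ighv11-2 was -0.29 under quantile normalization in place of -1.12. Under TMM-like scaling the median over all genes was 0.06 in place of 0.24. No paired analysis was possible because the groups share no replicate number. Depth limits the low members: 3 fragments on a row of the length of Ighv3-3 are 0.278 to 0.475 FPKM in the Gdpd3-/- libraries.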

Other observations

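The rows of the locus outside the rule summed to 19333, 15698 and 20182 FPKM in Gdpd3+/+ and 6486, 5459 and 7607 in Gdpd3-/-, beside 18296 and 7772 for the members on average. Their segment names below were taken from GENCODE M21 by transcript identifier, and the rows were picked with their values in view. The highest was Gm16632 (Ighv5-16), with 5460, 4692 and 3022 FPKM in Gdpd3+/+ and 210.5, 59.7 and 439 in Gdpd3-/-, which do not overlap. Gm16698 (Ighv7-3) had 4567, 1875 and 3043 FPKM in Gdpd3+/+ and 776, 687 and 2361 in Gdpd3-/-, with Gdpd3-/- replicate 7 above Gdpd3+/+ replicate 2. Gm16813 (Ighv1-76) had 1413, 407 and 1646 FPKM in Gdpd3+/+ and 4.51, 15.2 and 0.973 in Gdpd3-/-. Gm16886 (Ighv5-9-1) was the second segment of the whole locus in Gdpd3-/- replicate 6 at 2275 FPKM, and was at 1.80 and 2.27 FPKM in the other Gdpd3-/- libraries and at 204, 634 and 116 in Gdpd3+/+. Over the 112 rows, Ighv5 averaged 13.4% and Ighv7 9.94% of the sum, families with no member under the rule.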
